A study of Mus musculus with 6 samples.

Results

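The genes described here encode the SMN complex, the machine that assembles spliceosomal snRNPs, together with coilin. They are Smn1, Gemin2, Gemin4, Gemin5, Gemin6, Gemin7, Gemin8, Ddx20, Strap and Coil, 10 genes of the 46072 measured, and were chosen by symbol. Coil has 2 rows in the files, so 11 rows carry these symbols. The samples were mouse embryos at the 4-cell stage, 3 Son siRNA libraries and 3 control libraries, prepared with Smart-Seq2, which amplifies full-length cDNA and keeps no strand information. The siRNA against Son had been injected into zygotes. Son encodes a nuclear speckle protein that acts in pre-mRNA splicing, and the series asks what its knockdown does to early development. The strain, the treatment of the controls, the number of embryos in a library and the litters are not stated. The tests therefore weigh differences against the spread of these libraries, which may be technical.

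Most spliceosomal snRNAs, though not all, are exported to the cytoplasm, where the SMN complex loads a ring of Sm proteins onto them. The assembled particle returns to the nucleus and passes through Cajal bodies, which coilin organizes. SMN and Gemin2 hold the Sm proteins, Gemin5 recognizes the snRNA, and the other Gemins link and complete the complex. In humans, loss of SMN1 causes spinal muscular atrophy, and mouse embryos without Smn1 die before implantation.

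Gemin4 was the single member past the test threshold, and its counts cannot be separated from those of a neighbour from the annotation alone. In GENCODE vM21 (GRCm38) the coding transcript of Gemin4 has 2 exons on the minus strand of chromosome 11. The second, 76210571 to 76213923, holds 3353 of its 3540 bases (94.7%). A long coding transcript of the upstream gene Glod4, with 9 exons and 4203 bases, ends in that same exon on the same strand, so even stranded reads inside it would fit both genes. The 30 bases around the splice junction into the shared exon are shown because they are where the transcripts differ, with the upstream exon in lower case and the first 15 bases of the shared exon in capitals.
Gemin4 junction: ccgccatggacctagGACCCTTGAATATCT
Glod4 junction: aaattattggatgatGACCCTTGAATATCT
Each of these 30-base strings occurs in 1 annotated transcript. On the opposite strand Fam57a covers 2875 exonic bases of Gemin4, only through Fam57a-202, annotated as a processed transcript, and Dbil5 covers 57. In all, 91.3% of the 3734 exonic bases of Gemin4 are shared with some other gene.

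**Figure D1:**
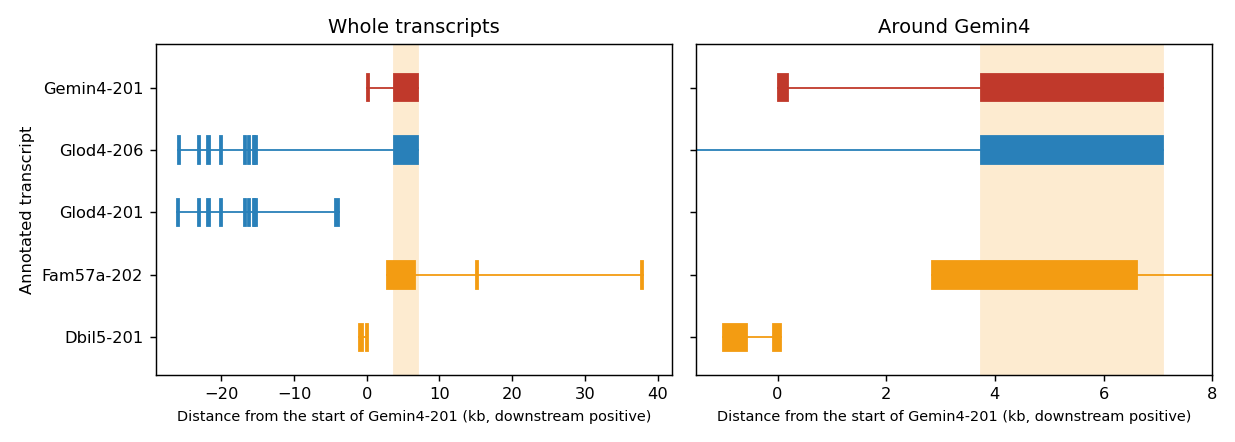
Exons (boxes) and introns (lines) of the Gemin4 coding transcript in red, 2 Glod4 transcripts on the same strand in blue, and a transcript each of Fam57a and Dbil5 on the opposite strand in orange, by distance in kb from the Gemin4 start (left, whole transcripts, and right, around Gemin4). The shaded exon of 3353 bases is the last exon of both Gemin4 and the long Glod4 transcript, and the Fam57a transcript drawn crosses most of it.

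The other end of Gemin4 is shared as well. Its first exon runs head to head into the first exon of Dbil5, a diazepam-binding-inhibitor-like gene, and the RefSeq promoter window (GRCm38.p6, chr11:76217523-76217822, minus strand) holds the shared stretch. It is printed with the 57 bases that are exonic in both genes in capitals, since reads there have no strand to assign them.
Gemin4 promoter window: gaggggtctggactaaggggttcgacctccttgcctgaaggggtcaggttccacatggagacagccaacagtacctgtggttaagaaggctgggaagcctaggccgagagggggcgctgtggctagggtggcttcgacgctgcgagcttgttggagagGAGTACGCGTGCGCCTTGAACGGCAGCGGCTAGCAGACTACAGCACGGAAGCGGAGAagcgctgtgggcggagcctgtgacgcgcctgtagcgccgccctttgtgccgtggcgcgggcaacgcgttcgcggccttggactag

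Son had 41, 28.0 and 25.1 CPM (the CPM scale, estimated counts relative to the library total after TMM scaling by the trimmed mean of M-values) in siRNA libraries 1 to 3, against 249, 322 and 332 CPM in controls 1 to 3. Son thus fell, at -3.26 on the log2 scale (edgeR quasi-likelihood test, Benjamini-Hochberg adjusted p = 0.00991, n = 3 each; exact two-sided permutation p = 0.1, the smallest this design allows). Library totals were 104634855 to 114892490 units after siRNA and 107996833 to 118865650 units in controls, and 4 units were assumed to be 1 read pair, on weak evidence. Under that assumption the floor of 3 read pairs is 12 units, or 0.0906 to 0.125 CPM, and covers counting error only, since PCR copies carry no molecular identifiers. All 10 oocyte and early embryo markers passed that floor in a library, and their sums were 872 to 1220 CPM after siRNA and 544 to 1200 CPM in controls. Among them Oosp1, Gdf9, Zp3 and Zscan4d were higher and Pou5f1 lower in every siRNA library than in any control, at log2 fold changes of 2.04, 1.2, 0.66, 0.64 and -1.81. Of these edgeR called 0 (smallest adjusted p = 0.0915, Oosp1) and DESeq2 called Oosp1 and Pou5f1 (adjusted p = 0.000675 and 0.0368), and their part in the members' values was not tested. The groups overlapped for Dppa3, Nlrp5, Zar1, Npm2 and Obox3 (log2 fold changes 0.15, 0.77, -1.23, -0.01 and -0.07). Of all genes tested, 23.7% did not overlap in either direction, and DESeq2 called 6.9% and edgeR 0.989%. Cumulus markers summed to 0.107 to 0.316 CPM after siRNA and 0.0 to 0.872 CPM in controls (Foxl2, Fshr and Inha at 0), and sperm markers to 0.151 to 0.905 and 0.194 to 1.14 CPM. Blood markers summed to 9.74 to 11 CPM after siRNA and 6.02 to 12.1 CPM in controls, carried by Hba-a1 and Hba-a2, with Hbb-bs, Hbb-bt and Ptprc at 0. Because these are bulk samples, fewer cells of a type and less RNA per cell cannot be told apart.

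Of the 10 members, all of which passed the low-count filter, 0 fell and the count given to 1, Gemin4, rose after Son siRNA at an adjusted p under 0.05 over 17788 genes. Across all genes tested 0.899% were called lower, 0.0899% higher and 0.989% either way. At an unadjusted p under 0.05 there were 2 members, Smn1 and Gemin4, against 14.7% of all genes, and DESeq2 likewise called 1 higher and 0 lower, against 2.28% and 4.63% of all genes (6.90% either way). The members' median log2 fold change was -0.26, where the median over all genes tested was 0.024, and 6 of the 10 were below 0. The groups did not overlap for 1 member that was lower after siRNA (Smn1) and 2 that were higher (Gemin4 and Gemin7), near the 11.6% and 12.1% of all genes that did so (23.7% either way). The median of the members moved to 0.0 with total-count scaling, which moved the median of all genes to 0.31, and was -0.10 without control 1 and -0.06 without control 2.

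**Figure D2:**
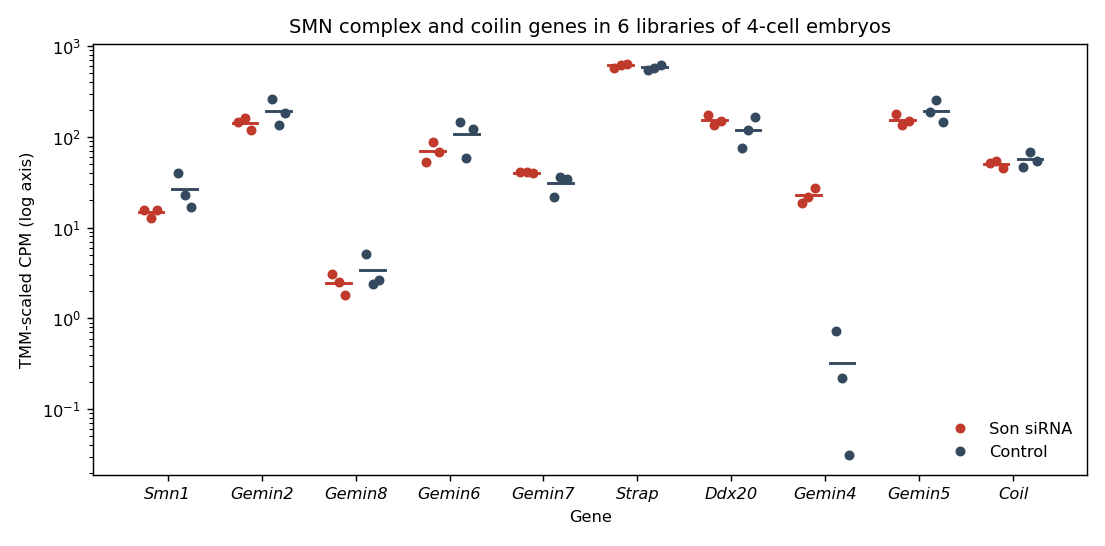
TMM-scaled CPM (log axis) of each member in the 3 Son siRNA (red) and 3 control (dark) libraries, where points are libraries and bars group means. Gemin4 is the member whose groups stand far apart, at 18.9 to 27.4 CPM after siRNA against 0.0311 to 0.728 CPM in controls.

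Smn1 encodes SMN, the scaffold that oligomerizes and binds the arginine-rich tails of the Sm proteins (chromosome 13, 100124852 to 100137690). It had 15.8, 12.7 and 15.6 CPM in siRNA libraries 1 to 3, against 39.7, 23.1 and 16.9 CPM in controls 1 to 3. Every siRNA library lay below every control, but control 3 lay close to them and control 1 far above. The means were 14.7 CPM after siRNA and 26.6 CPM in controls, 55.3% of the control mean, and the log2 fold change was -0.86 (SE 0.357, 95% interval -1.66 to -0.05). This did not pass the test over all genes (edgeR adjusted p = 0.311, unadjusted p = 0.04). Without control 1 the log2 fold change was -0.44 (edgeR adjusted p = 0.575).

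Gemin2, the partner of SMN that clasps the open Sm ring (chromosome 12, 59013393 to 59028470), had 145, 161 and 120 CPM in siRNA libraries, against 261, 137 and 183 CPM in controls. The groups overlapped, since control 2 lay within the siRNA range. Its log2 fold change was -0.44 (SE 0.269, 95% interval -1.05 to 0.16, edgeR adjusted p = 0.506). Gemin8, which ties Gemin6 and Gemin7 to SMN (chromosome X, 166170454 to 166190512), had the lowest counts after Gemin4 in controls. It had 3.06, 2.49 and 1.79 CPM in siRNA libraries and 5.12, 2.41 and 2.62 CPM in controls. These also overlapped, and the interval of its log2 fold change, -1.54 to 0.61, spans both directions (estimate -0.47, edgeR adjusted p = 0.732).

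Gemin6 and Gemin7 encode Sm-fold proteins that pair with each other, and Strap, also called Unrip, is a WD-repeat protein that binds Gemin7 and has roles outside the complex. Gemin6 (chromosome 17, 80224441 to 80228497) had 53.3, 88.6 and 68.4 CPM after siRNA, against 146, 59.1 and 122 CPM in controls. Control 2 again lay among the siRNA libraries, and the log2 fold change of -0.64 had an interval of -1.43 to 0.16 (edgeR adjusted p = 0.455). Gemin7 (chromosome 7, 19564946 to 19577595) had 40.8, 40.9 and 39.9 CPM after siRNA and 21.6, 36.3 and 34.5 CPM in controls. All siRNA libraries lay above all controls and close together, yet the log2 fold change of 0.40 did not pass (interval -0.22 to 1.02, edgeR adjusted p = 0.566). Its partner Gemin6 thus had an estimate of the opposite sign, and neither interval excludes 0. Of the exonic bases of Gemin7, 14.8% overlap the opposite-strand gene Zfp296, which had 80.6, 84.0 and 76.4 CPM after siRNA and 99.1, 265 and 68.3 CPM in controls. Summing both genes gave a log2 fold change of -0.53 (edgeR adjusted p = 0.582), of the opposite sign. That sum rested on control 2, without which it was 0.12 (edgeR adjusted p = 0.807).

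Strap (chromosome 6, 137735078 to 137751932) was the most abundant member and the steadiest. It had 579, 618 and 643 CPM in siRNA libraries, against 553, 574 and 627 CPM in controls. The ranges overlapped widely, and the interval of the log2 fold change, -0.33 to 0.47, was the narrowest of the 10 (estimate 0.07, SE 0.178, edgeR adjusted p = 0.917).

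Ddx20, or Gemin3, is a DEAD-box helicase that binds Gemin4 (chromosome 3, 105678270 to 105687574). It had 175, 135 and 151 CPM after siRNA, against 76.2, 118 and 164 CPM in controls. Control 3 lay inside the siRNA range and control 1 well below it, and the log2 fold change was 0.36 (SE 0.29, interval -0.29 to 1.02, edgeR adjusted p = 0.635). The partner of Gemin4 was thus not called. Gemin5, the WD-repeat subunit that recognizes snRNAs (chromosome 11, 58120002 to 58168539), had 177, 135 and 148 CPM after siRNA and 188, 253 and 145 CPM in controls. Those ranges overlapped, with a log2 fold change of -0.35 (interval -0.92 to 0.22, edgeR adjusted p = 0.581).

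Coil encodes coilin, the marker protein of Cajal bodies, which binds SMN and is not a subunit of the complex (chromosome 11, 88970252 to 88991613). It had 51.6, 54.6 and 44.9 CPM after siRNA, against 46.3, 69.0 and 54.8 CPM in controls. The libraries intermingled, and the log2 fold change was -0.17 (interval -0.72 to 0.38, edgeR adjusted p = 0.825), which turned to 0.09 with total-count scaling. The second Coil row, ENSMUSG00000103316, has no place in GENCODE vM21 and held 43, 6 and 14 units after siRNA and 3, 20 and 3 units in controls. A processed pseudogene, 2210409E12Rik, shares 197 bases (5.6%) with Coil on the same strand. It had 13.5, 22.5 and 16.9 CPM after siRNA and 34.9, 34.0 and 33.7 CPM in controls. The pseudogene's own log2 fold change was -0.96 (edgeR adjusted p = 0.149, DESeq2 0.0181). Adding it to Coil gave a log2 fold change of -0.42 (edgeR adjusted p = 0.427). That sum was 65.2, 77.0 and 61.8 CPM after siRNA and 81.2, 103 and 88.5 CPM in controls. These groups did not overlap, as was so for 11.6% of all genes tested in the lower direction.

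Gemin4 encodes a subunit bound to the helicase Gemin3 (chromosome 11, 76210571 to 76217664), and the count given to it rose after siRNA. It had 2284, 2566 and 3628 units in siRNA libraries 1 to 3, against 70, 25 and 3 units in controls 1 to 3. Control 3 was below the floor of 12 units, controls 1 and 2 were above it, and the groups were far apart. On the scaled level this was 18.9, 21.9 and 27.4 CPM after siRNA, against 0.728, 0.22 and 0.0311 CPM in controls. The means were 22.7 ± 4.33 CPM and 0.327 ± 0.361 CPM (SD, n = 3 each), a ratio of 69.6. The log2 fold change was 6.12 (SE 0.905, 95% interval 4.07 to 8.17, edgeR adjusted p = 0.0263). Without siRNA library 1, 2 or 3 it was 6.24, 6.14 or 5.97 and missed the threshold (edgeR adjusted p = 0.189, 0.099 or 0.149), as did every other gene in those fits. Without control 1, 2 or 3 it was 7.45, 5.90 or 5.59 and stayed past (edgeR adjusted p = 0.0277, 0.0471 or 0.0294).

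The neighbours that share bases with Gemin4 were counted in the same libraries. Glod4, a glyoxalase-domain gene, had 13.5, 19.6 and 12.9 CPM after siRNA, against 33.7, 17.0 and 13.4 CPM in controls. It was high in control 1 and overlapped otherwise (log2 fold change -0.48, edgeR adjusted p = 0.647). Fam57a, a TLC-domain gene, had 3.60, 2.75 and 3.08 CPM after siRNA and 0.219, 6.96 and 2.33 CPM in controls. The controls thus ranged on both sides of the siRNA libraries (log2 fold change -0.01, edgeR adjusted p = 0.998). Dbil5 had 47, 29 and 24 units after siRNA and 8, 0 and 8 units in controls, below the floor in every control (log2 fold change 2.28, edgeR adjusted p = 0.55).

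As a ratio of means, the sum over the 4 genes differed far less than Gemin4 alone (1.66 against 69.6). That ratio depends on the neighbours added to a Gemin4 control mean near 0. Gemin4 alone averaged 22.7 CPM after siRNA and 0.327 CPM in controls, and Glod4 15.3 and 21.4 CPM. The sum was 36.4, 44.5 and 43.6 CPM in siRNA libraries, against 34.7, 24.2 and 15.8 CPM in controls. The lowest siRNA library lay just above control 1, so the groups did not overlap but nearly touched. The means were 41.5 ± 4.46 CPM and 24.9 ± 9.48 CPM (SD, n = 3 each), a ratio of 1.66. Refitted as 1 row, the sum had a log2 fold change of 0.73 (SE 0.323) and did not pass (edgeR adjusted p = 0.336, unadjusted p = 0.0489). With Gemin4 and Glod4 alone it was 0.81 (edgeR adjusted p = 0.356), from 32.4, 41.5 and 40.3 CPM after siRNA and 34.4, 17.3 and 13.4 CPM in controls, which overlapped.

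The division of the summed counts among the genes restates the same counts as shares, since Gemin4 is part of the sum. Gemin4 took 54.7 ± 7.24% of the summed counts after siRNA and 1.07 ± 0.96% in controls (SD, n = 3 each). Its share was 51.9, 49.2 and 62.9% in siRNA libraries 1 to 3, against 2.10, 0.909 and 0.197% in controls 1 to 3, so the groups did not overlap. This was not tested as a share. Gene totals do not show which exons the reads came from. Whether reads of the shared exon were given to Glod4 in controls and to Gemin4 after siRNA, or whether Gemin4 transcripts themselves were few in controls, was not tested and cannot be told apart in these gene counts.

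**Figure D3:**
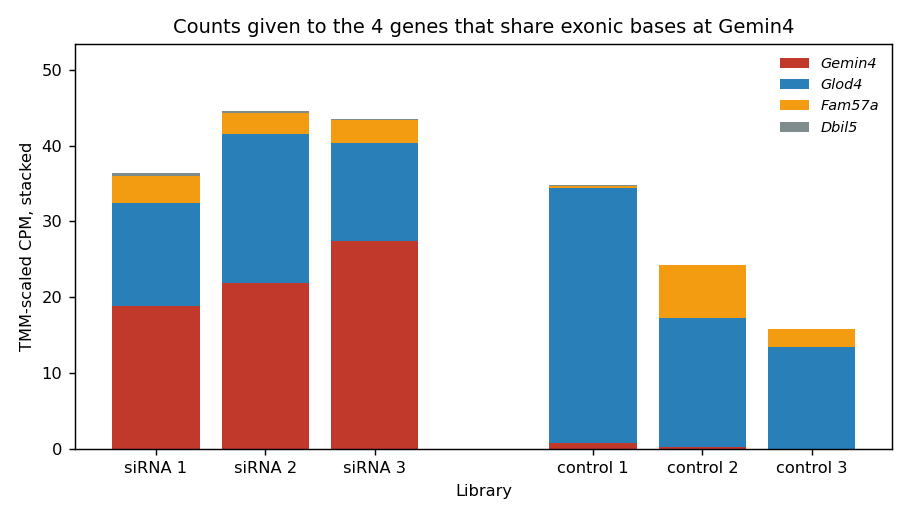
TMM-scaled CPM given to Gemin4, Glod4, Fam57a and Dbil5 in each library, stacked, with siRNA libraries at the left and controls at the right. The sums are 36.4 to 44.5 CPM after siRNA and 15.8 to 34.7 CPM in controls, while the Gemin4 part is 18.9 to 27.4 CPM after siRNA and at most 0.728 CPM in controls.

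**Figure D4:**
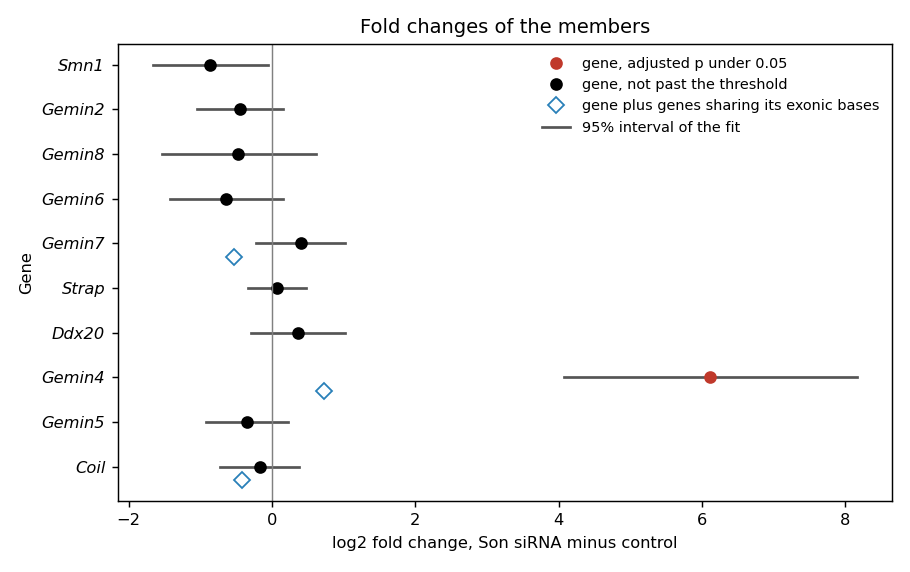
Log2 fold changes (Son siRNA minus control) with the 95% interval of the edgeR fit for each member, and as open diamonds the value when genes sharing exonic bases are added. Gemin4 stands at 6.12 alone and at 0.73 when summed, and Gemin7 at 0.40 alone and -0.53 when summed.

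Replicate spread was smaller after siRNA for each of the 10 members, with a median SD of log2 CPM of 0.194 after siRNA and 0.511 in controls. Over all genes tested 72.6% had the smaller SD after siRNA (medians 0.407 and 0.678). Control 1 was the highest control for Smn1, Gemin2, Gemin4, Gemin6 and Gemin8 and the lowest for Gemin7, Ddx20, Strap and Coil.

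Levels per length (TPM, counts over annotated exonic bases scaled to a common total per library) placed Strap at the top of the 10, with a mean over the 6 libraries of 401 TPM (305 to 497). Gemin2 followed at 139 TPM and Gemin6 at 122 TPM, then Ddx20 at 69.1, Gemin5 at 55.4, Gemin7 at 42.1 and Coil at 31.7 TPM. Smn1 itself was near the bottom of the order at 16.1 TPM (9.12 to 26.1), followed by Gemin4 at 6.85 and Gemin8 at 2.35 TPM. The range of Strap did not overlap that of Gemin2, and each other member overlapped the next in the order. Gemin4 averaged 13.5 ± 3.5 TPM after siRNA and 0.163 ± 0.160 TPM in controls (SD, n = 3 each), which put it at rank 8 after siRNA and rank 10 in controls. Over the longest transcript in place of all exonic bases, Smn1 was at 29.2 and Gemin7 at 63.0 TPM, and Gemin7 then stood above Gemin5, and no other pair changed order.

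No gene was close to Gemin4 across the 6 libraries by a measure that weighs pattern and size of change together. A gene with the same pattern and a smaller change is distant by it. Among 14009 other protein-coding genes the smallest root mean square differences of centred log2 CPM were 1.32 for Aif1, 1.33 for Acot1 and 1.35 for Tmem205. These were all low genes, at 0.946, 0.766 and 0.91 CPM on average after siRNA and 0.0451, 0.0 and 0.0312 CPM in controls, and none passed the test (edgeR adjusted p = 0.27, 0.0564 and 0.222).

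The promoter windows of the members were rich in CpG. All 10 members matched the RefSeq promoter table (GRCm38.p6, 300 bases, the window nearest the annotated start), with a median GC content of 56.9% and a median CpG observed-to-expected ratio of 0.90. For Gemin7 and Coil the nearest window (19573294 to 19573593 and 88973685 to 88973984) does not hold the annotated gene start (19577595 and 88970252). Over the 32851 windows of the table these medians were 52.7% and 0.38. The ETS motif CCGGAAG, on either strand, was in 3 of the 10 windows (Smn1, Gemin8 and Strap), against 8.86% of all windows. The YY1 motif AAGATGG and the TATA motif TATAAA were each in 1 window, that of Coil, against 6.34% and 13.6%. The NRF1-type motif TGCGCA was in 1, that of Strap, against 7.76%. The Gemin4 window printed above held none of these 4 strings.

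Beyond the complex, 59 genes of the surrounding pathway were tested, of which 1 fell and 0 rose by edgeR, where 0.899% and 0.0899% of all genes did. DESeq2 called 6 lower and 1 higher, against 4.63% and 2.28% of all genes. Their median log2 fold change was -0.13, against 0.024 for all genes, and 38 of the 59 were below 0, as were 8669 of all 17788 genes. At an unadjusted p under 0.05 there were 10, against 14.7% of all genes, and these shares and the 6.90% that DESeq2 called either way are the background for the counts by list. With total counts the median log2 fold change of the 59 genes was 0.15, against 0.31 for all genes. The groups did not overlap for 12 that were lower and 2 that were higher after siRNA, against 11.6% and 12.1% of all genes.

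The gene that fell was Wrap53, whose protein brings small RNAs and SMN to Cajal bodies (chromosome 11, 69561758 to 69580255). It had 8.01, 8.56 and 7.18 CPM after siRNA, against 44.1, 40.5 and 21.1 CPM in controls. All siRNA libraries were well below the lowest control, and the log2 fold change was -2.15 (SE 0.345, edgeR adjusted p = 0.0339). None of its exonic bases overlap another gene. Without siRNA library 1, 2 or 3, or control 1, Wrap53 had -2.16, -2.22, -2.08 or -1.96 and missed it (edgeR adjusted p = 0.277, 0.134, 0.261 or 0.0775). With total counts it had -1.89 (edgeR adjusted p = 0.0924). In the same list of 11 Cajal body genes, which had a median of -0.077 (0.17 with total counts), Toe1, a deadenylase that trims snRNA ends, had 4.51, 4.12 and 3.66 CPM after siRNA and 11.7, 8.57 and 8.56 CPM in controls. Its log2 fold change was -1.23 (edgeR adjusted p = 0.124, DESeq2 0.00726), and 40.7% of its exonic bases overlap Tesk2 on the other strand.

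The Sm proteins that the complex loads had a median log2 fold change of 0.026 (0.33 with total counts, -0.18 without siRNA library 2 and 0.36 without control 1), with 4 of 8 genes below 0 and 0 past the edgeR threshold (1 at an unadjusted p under 0.05 and 1 by DESeq2, both times Snrpn). Snrpn, the imprinted Sm protein gene, had 54.2, 66.7 and 55.9 CPM after siRNA, against 227, 101 and 91.5 CPM in controls. Its groups did not overlap (log2 fold change -1.25, edgeR adjusted p = 0.138, DESeq2 0.0162), though 34.1% of its exonic bases lie in other annotated genes. Snrpd3 had a log2 fold change of -0.66 (edgeR adjusted p = 0.437). The 2 Lsm genes of the U7 particle, Lsm10 and Lsm11, had 0.57 and 0.91 (edgeR adjusted p = 0.526 and 0.59; median 0.74, or 1.05 with total counts).

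Proteins particular to single snRNPs had the lowest list median, -0.62 over 5 genes, with 0 past the edgeR threshold (2 at an unadjusted p under 0.05 and 2 by DESeq2, Snrpc and Snrpa1). Snrpc had 334, 247 and 385 CPM after siRNA and 813, 731 and 525 CPM in controls (log2 fold change -1.10, edgeR adjusted p = 0.0832, DESeq2 0.00406). Snrpa1 had 191 ± 63.6 CPM after siRNA and 372 ± 48.5 CPM in controls (SD, n = 3 each; log2 fold change -0.96, edgeR adjusted p = 0.131, DESeq2 0.0254). Both genes were lower in each siRNA library than in any control. The list median was -0.34 with total counts, -0.94 without siRNA library 2 and -0.41 without siRNA library 3.

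Of the remaining lists, 0 genes passed edgeR's test. At an unadjusted p under 0.05 there were 0 methylosome genes, 1 of export, capping and import and 4 of transcription and processing, and DESeq2 called 0, 0 and 2. The 6 genes of the methylosome, which methylates Sm tails before loading, had a median of -0.083 (0.19 with total counts), with Wdr77 at -0.64 and Clns1a, the Sm chaperone pICln, at -0.29 (edgeR adjusted p = 0.346 and 0.54). The 8 genes of snRNA export, cap hypermethylation and snRNP import had a median of -0.12 (0.20 with total counts), with the exportin gene Xpo1 at -0.61 and the importin gene Ipo8 at 0.66 (edgeR adjusted p = 0.256 and 0.343). The 19 genes of snRNA transcription and 3′ processing had a median of -0.25 (0.05 with total counts). Among them Snapc4, a subunit of the snRNA promoter factor, had 4.62, 5.27 and 7.18 CPM after siRNA and 1.28, 2.62 and 1.75 CPM in controls (log2 fold change 1.59, edgeR adjusted p = 0.129, DESeq2 0.0125). Ints11, the Integrator endonuclease gene listed as Cpsf3l, had 17.3 ± 0.882 CPM after siRNA and 38.8 ± 16.4 CPM in controls (SD, n = 3 each; log2 fold change -1.17, edgeR adjusted p = 0.137, DESeq2 0.0127). Of the exonic bases of Wdr77, Snapc4 and Ints11, 31.5%, 5.56% and 22.7% lie in other annotated genes.

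**Figure D5:**
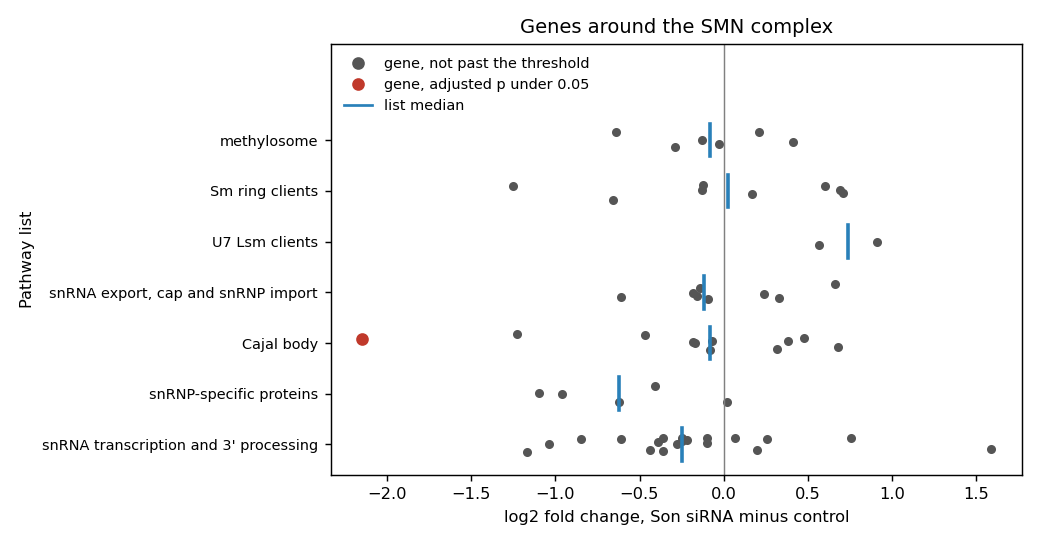
Log2 fold changes (Son siRNA minus control) of the 59 pathway genes by list, with list medians as blue lines. Wrap53 in the Cajal body list, at -2.15, is the gene past the threshold (red).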

How the data were processed

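RNA of 4-cell mouse embryos was measured in 3 Son siRNA and 3 control libraries, grouped by their titles. The authors deposited whole-number estimated counts for 46072 genes per library, not normalized. The build, GRCm38, and the tools StringTie 1.3.3b and HISAT2 2.0.5 are named per the submitters' processing notes, without roles. The annotation release, the counting step and how reads in shared exons were assigned are not stated. Between 26.4% and 32.4% of the values from 1 to 40 in a library were multiples of 4 (25% by chance), weak evidence for the assumption that 4 units are 1 read pair, on which the floor rests.

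Counts were used as deposited in edgeR 4.0.16 (R 4.3.3): filterByExpr, TMM, glmQLFit and glmQLFTest of siRNA minus control over all 17788 genes kept, Benjamini-Hochberg adjustment, threshold 0.05. The test was checked on simulated counts that had the same spread in both groups, so a spread that differs between groups was not covered. DESeq2 1.42.0, other scalings and filters, a replicate block, counts divided by 4, leaving out each library and summing overlapping genes were alternatives. Fold changes are log2, and log2 CPM used a prior count of 2. Exonic overlaps and lengths came from GENCODE vM21 (45223 genes matched, 849 did not); TPM was computed without TMM. Members and lists were chosen with earlier results of these data known. Named genes were the members, genes overlapping them, Son, from each list those called and the 2 with the smallest p, and the 3 closest profiles to a called member.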

Additional observations from a re-analysis of the deposited data

How the results depend on the processing

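Fold changes of Smn1, Gemin2, Gemin5, Gemin6, Gemin8, Ddx20 and Strap kept their direction and stayed short of the threshold under all 14 alternatives each. Leaving out 1 library at a time, the counts were 0 to 1 members higher, 0 to 1 pathway genes lower and 0 to 1 higher, and 0 to 231 genes lower and 0 to 84 higher over all genes. Gemin4 ranged from 5.59 to 7.45 in those fits. Leaving out siRNA library 1, 2 or 3 left edgeR with 0 calls in all, where 1786, 2348 or 1733 genes had an unadjusted p under 0.05. The replicate block gave 0 edgeR calls, lower or higher, in members, pathway or all genes (1997 genes had an unadjusted p under 0.05), and Gemin4 had 6.68 (adjusted p = 0.064) and Wrap53 -2.09 (adjusted p = 0.103). Same-numbered libraries did not deviate together (correlations -0.14, -0.189 and 0.0617 over 11958 genes), so the numbers were not taken as pairs. Over all genes, calls lower and higher were 35 and 7 with total counts, 91 and 9 with no filter, 245 and 43 with a filter of 50 units in 3 libraries, 279 and 51 with counts divided by 4, and 823 and 405 by DESeq2. Pathway genes lower were 0 with total counts, and DESeq2 called 6 lower and 1 higher. Summing overlapping genes left 0 members called. The summed Gemin4 locus had 0.73 (0.81 on the same strand alone, 1.02 with total counts, 0.73 by DESeq2, and 0.82, 0.67 and 0.70 without siRNA library 1, 2 and 3 and 1.05, 0.72 and 0.50 without control 1, 2 and 3), with adjusted p of 0.191 to 0.671. Among single genes, reversals were Gemin7 when summed (-0.53), and with total counts Coil (0.09) and Clns1a (0.02). Some list medians also changed sign when a library was left out. Among them, the Cajal body median was 0.18 without control 2. The median of export, capping and import was 0.13 without control 3. The sums without 1 library, with total counts, by DESeq2 and on the same strand were chosen after seeing the data. In controls Gemin4 rests on at most 70 units.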
